A study of Mus musculus with 12 samples.

Results

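The 8 genes described here encode the auxiliary subunits of high-voltage-activated calcium channels. They are the 4 β subunit genes (*Cacnb1*, *Cacnb2*, *Cacnb3*, and *Cacnb4*) and the 4 α2δ subunit genes (*Cacna2d1*, *Cacna2d2*, *Cacna2d3*, and *Cacna2d4*), and they were taken by symbol from the 55418 genes of the count table. RNA was measured in the brainstem of 12 outbred CFW mice at P15, with 1 library per mouse. The 4 groups of 3 mice each were morphine-exposed males, morphine-exposed females, saline-exposed males, and saline-exposed females. Morphine was given at 15 mg/kg, 2 times per day, on each day between P1 and P14, the controls received saline on the same schedule, and tissue was taken 16 h after the last injection. The labels name no transgene and no genetic modification. The labels give the tissue as brainstem, while the deposited description of the extraction names spinal cords. The hindbrain neuron markers *Slc6a5*, *Glra1*, *Tph2*, *Dbh*, and *Hoxb3* were detected in all 12 libraries. *Slc6a5*, the glycine transporter of inhibitory neurons, was between 467 and 636 CPM (counts scaled to library size after TMM normalization). *Tph2* was between 19.7 and 41.9 CPM and *Dbh* between 3.37 and 9.63 CPM. No library of known spinal cord was there for comparison, so detection alone does not decide between the tissues. The question was whether repeated neonatal morphine changed these genes, over both sexes and in each sex.

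A high-voltage-activated calcium channel is built around a pore-forming α1 subunit. A β subunit binds the intracellular linker between the first and the second domain of the α1 subunit, helps the channel reach the plasma membrane, and sets its voltage dependence and inactivation. An α2δ subunit is an extracellular, membrane-anchored glycoprotein that promotes trafficking of the channel to presynaptic terminals. The α2δ proteins encoded by *Cacna2d1* and *Cacna2d2* bind gabapentin and pregabalin. Opioid receptors inhibit presynaptic calcium channels through the βγ subunits of G proteins, and the bound β subunit modulates that inhibition.

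Between 27850565 and 48097947 counts fell on genes in each library. Saline males 1, 2, and 3 stood apart from the rest in a trend with GC content, measured as the median log2 deviation of the fifth of genes with the highest GC content minus that of the fifth with the lowest. The trend was 0.769 in saline male 1, 0.982 in saline male 2, and -1.01 in saline male 3, against -0.569 to 0.506 in the other 9 libraries. The library labelled morphine male 6 had *Xist* at 380 CPM, against 0.399 to 2.64 CPM in the other males and 550 to 978 CPM in the females. Its Y-linked *Ddx3y* was at 12.8 CPM and *Uty* at 9.04 CPM, against 115 to 199 CPM and 24.1 to 53.0 CPM in the other males. It is kept in its labelled group. For the 8 genes, the males, the interaction, and the sex effect are also given without it. So are the partner genes named for the interaction. Nothing in the labels ties mice to dams, so the p-values rest on the spread between mice alone. In bulk tissue, fewer cells of a type and less RNA per cell cannot be told apart.

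The genes lie on 7 chromosomes of GRCm38 (GENCODE M21). *Cacnb1* (ENSMUSG00000020882) is on chromosome 11 from 98001508 to 98023034, *Cacnb2* (ENSMUSG00000057914) on chromosome 2 from 14603088 to 14987908, *Cacnb3* (ENSMUSG00000003352) on chromosome 15 from 98630840 to 98644529, and *Cacnb4* (ENSMUSG00000017412) on chromosome 2 from 52428320 to 52676831. *Cacna2d1* (ENSMUSG00000040118) is on chromosome 5 from 15934691 to 16374511, *Cacna2d2* (ENSMUSG00000010066) on chromosome 9 from 107399612 to 107529343, *Cacna2d3* (ENSMUSG00000021991) on chromosome 14 from 28904943 to 29721864, and *Cacna2d4* (ENSMUSG00000041460) on chromosome 6 from 119236526 to 119352407. They span between 13.7 kb (*Cacnb3*) and 816.9 kb (*Cacna2d3*). The longest transcripts of *Cacnb3* and *Cacnb1* were rich in GC, at 61.3% and 59.7%, and *Cacna2d2* followed at 55.8%. Those of *Cacnb2*, *Cacnb4*, and *Cacna2d1* held 39.0%, 40.5%, and 40.7%. *Cacna2d4* and *Cacna2d3* lay between, at 52.6% and 49.1%.

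The promoters of *Cacnb1*, *Cacnb3*, and *Cacna2d1* are printed because these 3 genes varied most between libraries, the first 2 together and *Cacna2d1* opposite to them. They are the 250 bases before a RefSeq start site (build GRCm38.p6), 5′ to 3′ on the strand of the gene. *Cacnb1* is at chr11:98022628-98022877 on the minus strand, *Cacnb3* at chr15:98634517-98634766 on the plus strand, and *Cacna2d1* at chr5:15934441-15934690 on the plus strand. Capitals mark the GC box, GGGCGG or its reverse complement CCGCCC, and the half-site of the cAMP response element, TGACG or its reverse complement CGTCA.
Cacnb1: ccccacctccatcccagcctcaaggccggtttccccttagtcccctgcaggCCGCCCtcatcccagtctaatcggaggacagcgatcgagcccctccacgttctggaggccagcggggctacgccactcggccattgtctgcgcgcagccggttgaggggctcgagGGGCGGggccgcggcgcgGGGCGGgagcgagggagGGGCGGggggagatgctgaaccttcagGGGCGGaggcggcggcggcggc
Cacnb3: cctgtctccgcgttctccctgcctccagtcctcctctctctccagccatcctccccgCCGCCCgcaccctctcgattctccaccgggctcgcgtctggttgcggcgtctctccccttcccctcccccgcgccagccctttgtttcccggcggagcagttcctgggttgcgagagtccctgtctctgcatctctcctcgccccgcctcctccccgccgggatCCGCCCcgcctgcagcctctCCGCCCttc
Cacna2d1: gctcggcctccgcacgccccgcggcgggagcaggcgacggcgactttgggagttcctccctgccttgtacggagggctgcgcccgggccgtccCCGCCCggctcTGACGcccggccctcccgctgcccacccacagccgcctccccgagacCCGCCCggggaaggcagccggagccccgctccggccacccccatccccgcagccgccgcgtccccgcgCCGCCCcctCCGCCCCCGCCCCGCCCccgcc
The GC box occurred 5 times in the *Cacnb1* window, 3 times in the *Cacnb3* window, and 6 times in the *Cacna2d1* window, counting overlapping matches on both strands. It was found in 32.74% of the 32851 mouse promoter windows of the same length. TGACG or CGTCA occurred once in the *Cacna2d1* window, once in the *Cacnb2* window, and in 17.77% of all windows. The full element, TGACGTCA, was in no window of these genes and in 1.55% of all windows. All 3 windows were GC-rich, at 73.2%, 70.4%, and 82.4%, although the transcript of *Cacna2d1* was not. Of the 8 genes, 7 had a RefSeq promoter entry. *Cacnb1*, *Cacnb2*, and *Cacnb3* had 2 entries each and *Cacnb4* had 3, and the entry nearest to the start of a principal (APPRIS) transcript was used. The *Cacnb2* window used held 3 CpG and 46.0% GC, against 23 to 37 CpG and 70.4% to 82.4% GC in the other 6. Its start site, at 14824092, lies inside the gene, which begins at 14603088. The other *Cacnb2* entry was not examined. A match of letters is a description and not a bound site.

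*Cacnb4*, whose loss causes ataxia and seizures in the lethargic mouse, had the highest level per length of the β genes in every library. Its RPKM, counts per kilobase of exon scaled like CPM, averaged 22.1 ± 3.16 (SD, n = 12 mice). *Cacnb3* averaged 7.17 ± 2.58 RPKM and *Cacnb1* 6.48 ± 1.80 RPKM (SD, n = 12 mice each), and *Cacnb2* averaged 3.57 ± 0.284 RPKM. The difference between *Cacnb3* and *Cacnb1* was smaller than their spread between mice. Within libraries, *Cacnb3* was above *Cacnb1* except in saline male 3 (4.091 against 4.333 RPKM) and saline female 6 (4.325 against 4.931 RPKM). *Cacnb2* is best known as the β gene of heart muscle, and *Cacnb1* as that of skeletal muscle, where its protein couples the membrane channel to release of calcium from internal stores. Among the α2δ genes, *Cacna2d2* (11.4 ± 1.71 RPKM), *Cacna2d3* (11.3 ± 1.04 RPKM), and *Cacna2d1* (9.08 ± 1.69 RPKM) had overlapping ranges. *Cacna2d2* is the gene of the ducky mouse, which has ataxia and absence epilepsy. *Cacna2d4*, best known from the photoreceptors of the retina, was the lowest at 0.673 ± 0.0967 RPKM. It nevertheless had between 147 and 357 counts in every library, where 6 photoreceptor markers summed to between 0.682 and 1.63 CPM and *Crx*, which defines them, was at 0 in 9 of the 12.

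The β genes together came to between 34.8 and 45.4 RPKM per library and the α2δ genes to between 29.6 and 35.8 RPKM. *Cacnb4* made up 56.5% of the β sum on average, but its share ran from 40.8% in saline male 2 to 69.5% in saline male 3. In the same pair of libraries *Cacnb3* made up 29.2% and 10.4%. The ratio of *Cacnb3* to *Cacnb4* (RPKM) was therefore 0.717 in saline male 2 and 0.149 in saline male 3, with the other 10 libraries at 0.169 to 0.559. The α2δ sum was divided more evenly, with *Cacna2d2* at 25.2% to 44.3%, *Cacna2d3* at 32.1% to 39.2%, *Cacna2d1* at 20.9% to 36.5%, and *Cacna2d4* at 1.44% to 2.71%. These shares depend on the length used. Per length of the longest transcript, *Cacna2d3* averaged 45.4% and *Cacnb2* 17.9%, against 34.7% and 9.09% per union of exons.

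**Figure D1:**
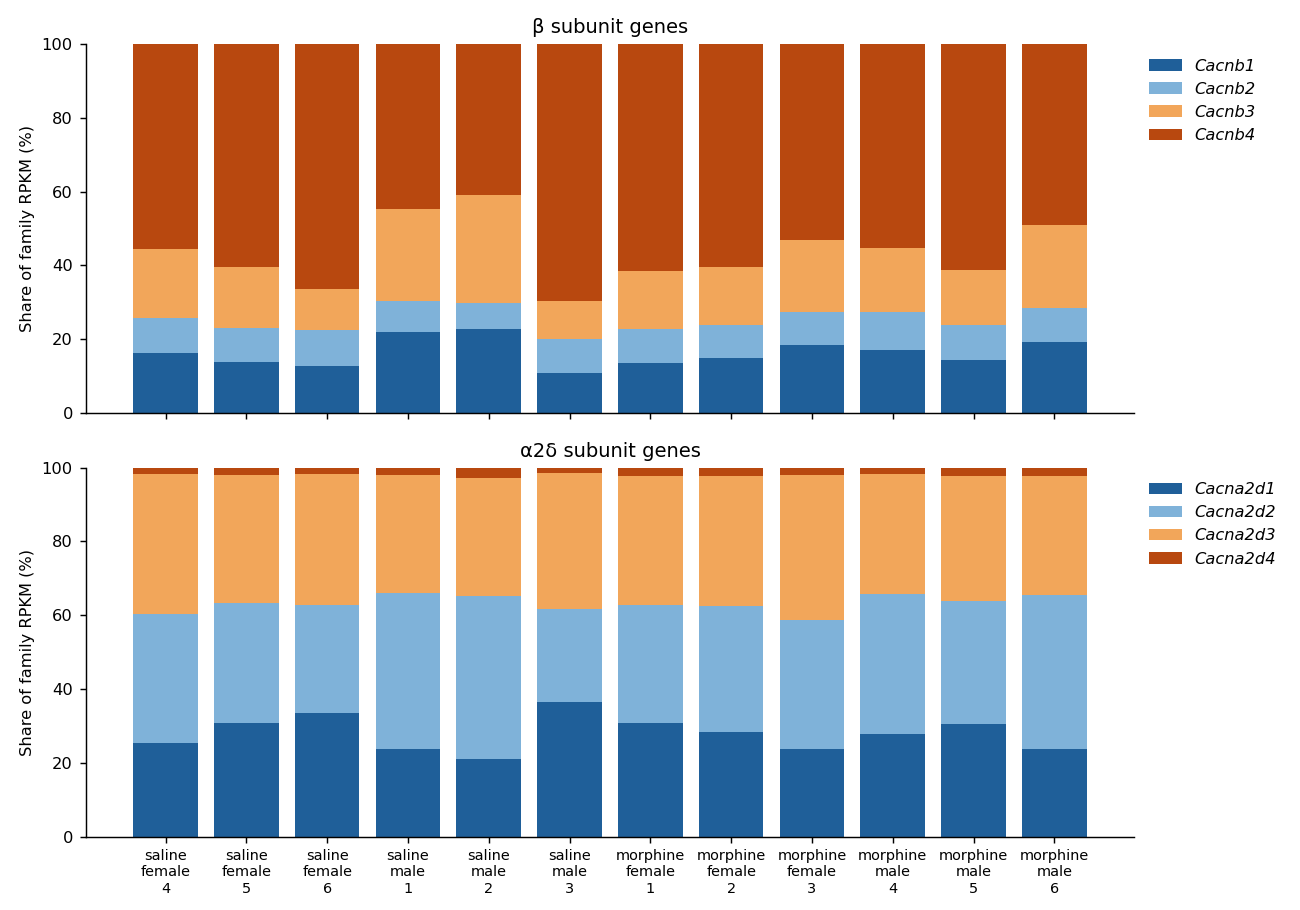
Share of each gene in the summed RPKM of its family (%), β genes above and α2δ genes below, with 1 bar per library in the 4 groups of 3 mice. The *Cacnb4* share is lowest in saline male 2 (40.8%) and highest in saline male 3 (69.5%), and *Cacna2d4* is a thin band of 1.44% to 2.71% in every bar.

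None of the 8 genes passed the thresholds in any treatment comparison. A call needed *p* under 0.05 before adjustment together with a log2 fold change beyond 0.26 in either direction. With the sexes combined, 6 morphine against 6 saline mice, 0 of 8 met both, against 1.19% of the 18608 genes tested. All 8 passed the filter on low counts, and 0 of 8 had a *p* under 0.05 before adjustment in this or the other 4 comparisons by edgeR, nor was any of them called by DESeq2. By edgeR, 246 genes in all had a *p* under 0.05 before adjustment and 0 after it, and DESeq2 gave 0 after adjustment as well. The morphine and saline levels overlapped for all 8 genes, where 0.0376% of genes tested did not overlap.

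The sex-combined fold changes were small in the genes with little spread. *Cacnb2* had a log2 fold change of 0.05 (95% interval -0.13 to 0.23) and *Cacna2d3* of 0.05 (-0.13 to 0.23), so that in this fit a change beyond the threshold of 0.26 lay outside both intervals. *Cacnb4* was at -0.02 (-0.28 to 0.24) and *Cacna2d1* at -0.00 (-0.33 to 0.33). *Cacna2d2* was at 0.11 (-0.13 to 0.36). The intervals of *Cacnb1* (-0.07, from -0.47 to 0.34) and *Cacnb3* (-0.12, from -0.65 to 0.40) were wide. *Cacna2d4* had the largest estimate, 0.20 (standard error 0.13, adjusted *p* = 1.00, edgeR). Its levels ran from 4.51 to 7.61 CPM with a median of 5.77 in saline mice, and from 6.07 to 7.36 CPM with a median of 6.86 in morphine mice. Without saline male 2, its highest library, the log2 fold change of *Cacna2d4* was 0.29 and it passed the thresholds (adjusted *p* = 1.00, edgeR). Without saline males 1 and 2, the libraries with the most positive GC trend, *Cacnb1* (0.31), *Cacnb3* (0.37), and *Cacna2d4* (0.31) passed in the upward direction, together with 11.7% of all genes tested. The sign of *Cacnb1* was positive also without saline male 1, saline male 2, or morphine male 5 alone (0.01 to 0.04) and with offsets for GC content and length (0.00), and that of *Cacnb3* without saline male 2 (0.03), so neither carries a direction.

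**Figure D2:**
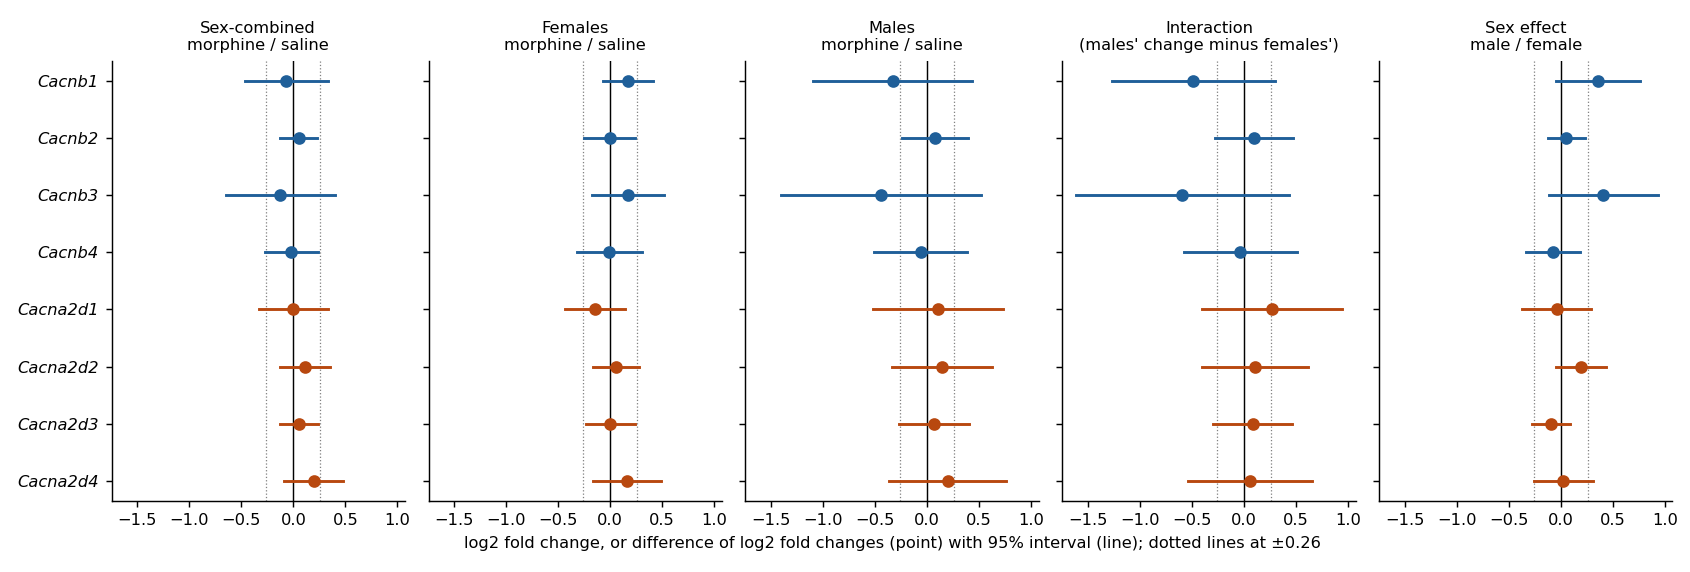
The log2 fold change (point) and its 95% interval (line) of each gene in 5 comparisons, with β genes in blue and α2δ genes in orange and dotted lines at the threshold of 0.26. Every interval includes 0, and the widest are those of *Cacnb3* and *Cacnb1* in the males and in the interaction.

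In the females, where the libraries had a narrower GC trend, 0 of 8 genes passed against 1.81% of the 18109 tested. *Cacnb1* was at 27.0, 23.0, and 22.3 CPM in saline females and at 26.5, 26.3, and 29.1 CPM in morphine females, which overlapped through saline female 4, and its log2 fold change was estimated at 0.17 (standard error 0.11). *Cacnb3* was at 27.9, 24.3, and 17.3 CPM in saline females and 27.0, 24.4, and 27.0 CPM in morphine females, for an estimate of 0.17 (standard error 0.15). This value ran from 0.01 without saline female 6 to 0.32 without saline female 4. *Cacna2d4* was the 1 gene whose groups did not overlap: it was at 5.63, 6.36, and 5.90 CPM in saline females and at 6.37, 7.33, and 6.39 CPM in morphine females. The gap between saline female 5 and morphine female 1 was narrow, the estimate on the log2 scale was 0.16 (standard error 0.15, adjusted *p* = 1.00, edgeR), and 5.67% of all genes tested did not overlap. *Cacna2d1* was at -0.15 (standard error 0.13), from -0.01 without saline female 6 to -0.25 without saline female 4, and the other 4 genes lay between -0.01 and 0.05. With loess offsets for GC content and length, the females' estimates were 0.01 for *Cacnb1*, -0.00 for *Cacnb3*, -0.05 for *Cacna2d1*, and 0.15 for *Cacna2d4*.

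In the males, 0 of 8 genes passed against 2.99% of the 18166 tested, and the groups of all 8 overlapped, where 8.85% of genes did not. *Cacnb3* was at 45.5 CPM in saline male 1, 50.9 CPM in saline male 2, and 16.4 CPM in saline male 3, and at 27.2, 22.7, and 34.5 CPM in the morphine males. All 3 morphine males thus lay inside the range of the saline males, whose levels differed 3.11-fold. The log2 fold change of *Cacnb3* was -0.44 (standard error 0.41, adjusted *p* = 1.00, edgeR). *Cacnb1* behaved in the same way, at 45.2, 44.7, and 19.6 CPM in saline males against 30.6, 24.6, and 33.3 CPM in morphine males, for an estimate of -0.33 (standard error 0.32). *Cacna2d1* showed the mirror image, at 90.8, 76.9, and 150.0 CPM in saline males and 123.1, 128.8, and 96.5 CPM in morphine males, for an estimate of 0.10 (standard error 0.27). *Cacnb4* was at 181.9, 158.9, and 245.8 CPM in saline males and 195.4, 208.4, and 168.7 CPM in morphine males. The median fold change of all genes in the males was -0.06 on the log2 scale after TMM scaling and 0.06 after scaling by total counts, so an estimate as small as that of *Cacnb4* (-0.06) carries no direction.

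**Figure D3:**
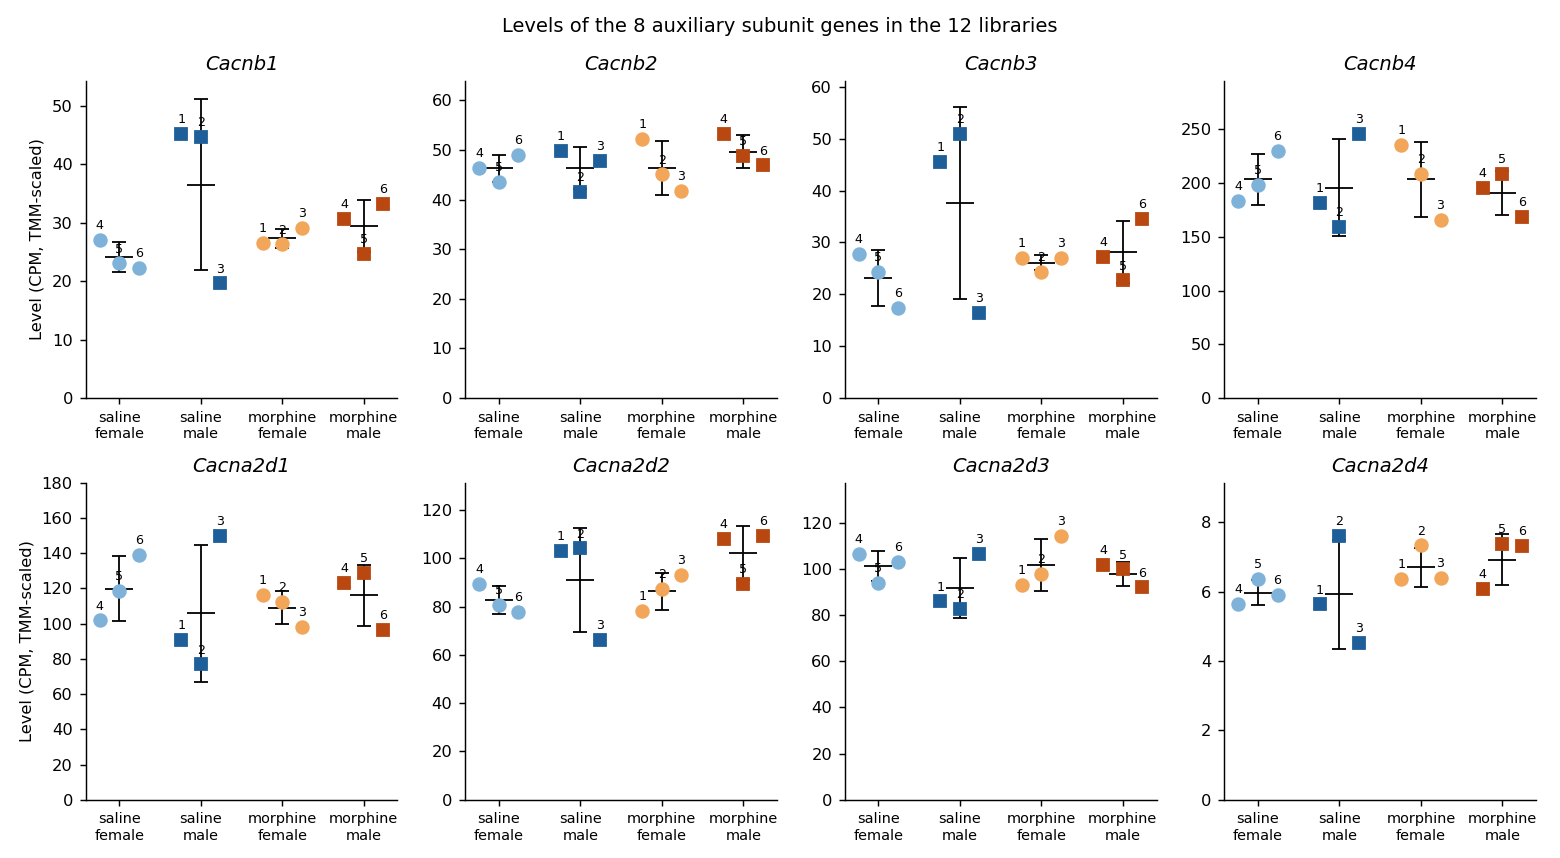
Level (CPM after TMM scaling) of each gene in the 12 libraries, numbered by replicate, with the mean and SD of the 3 mice of each group in black. Saline male 3 is lowest for *Cacnb1* (19.6 CPM) and *Cacnb3* (16.4 CPM) and highest for *Cacnb4* (245.8 CPM) and *Cacna2d1* (150.0 CPM).

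The calls in the males turned on saline male 3. Without it, *Cacnb1* (log2 fold change -0.60, adjusted *p* = 0.0351, edgeR), *Cacnb3* (-0.77, adjusted *p* = 0.0302), and *Cacna2d1* (0.47, adjusted *p* = 0.0535) passed the thresholds in males, together with 28.6% of all genes tested. The remaining saline males 1 and 2 are the libraries with the most positive GC trend. When the GC content and length of each gene were taken into account with loess offsets, the males' log2 fold changes were -0.01 for *Cacnb1* (standard error 0.12) and -0.01 for *Cacnb3* (standard error 0.08) and 0.08 for *Cacna2d1* (standard error 0.09). With the offsets and without saline male 3, a setting chosen after the data were seen, *Cacnb1* was at 0.09 and *Cacnb3* at 0.03, and neither passed. *Cacna2d2* did the reverse. It was at 103.0, 104.2, and 66.2 CPM in saline males and 108.2, 89.5, and 109.5 CPM in morphine males, for an estimate of 0.14 (standard error 0.20). With the offsets this was 0.24 (standard error 0.10), just short of the fold threshold, and without saline male 3 as well it was 0.34 (adjusted *p* = 0.0275, edgeR) and passed with 19.2% of all genes. Without the library labelled morphine male 6, 0 of 8 genes passed in the males.

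**Figure D4:**
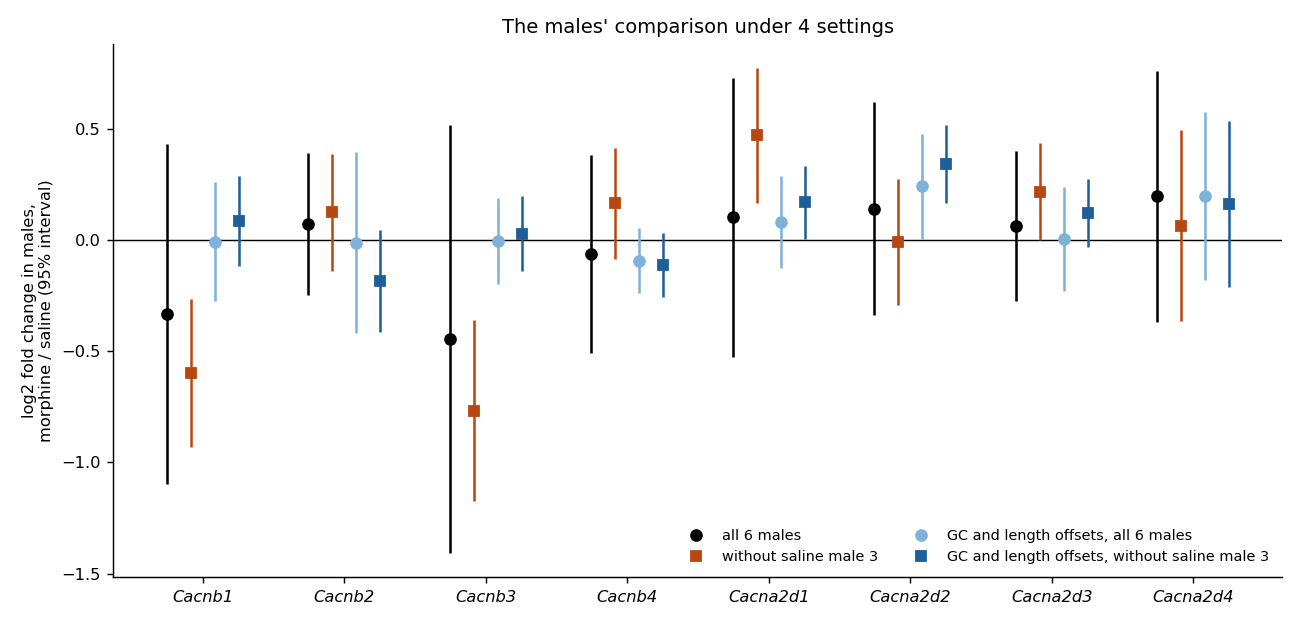
The males' log2 fold change (morphine over saline) and its 95% interval for each gene under 4 settings. Leaving out saline male 3 moves *Cacnb3* from -0.44 to -0.77, whereas the offsets bring it to -0.01, and *Cacna2d2* lies at 0.24 and 0.34 with the offsets.

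The interaction, the males' change minus the females' change, was tested over the 12 mice. No member passed, against 2.94% of the 19027 genes tested. The estimate was -0.60 (standard error 0.47) for *Cacnb3*, -0.49 (standard error 0.36) for *Cacnb1*, and 0.27 (standard error 0.31) for *Cacna2d1*, and the other 5 lay between -0.04 and 0.11. All 3 passed without saline male 3 (-0.98, -0.81, and 0.58), when 24.1% of genes passed. With the GC and length offsets over all 12 mice they were at -0.00, -0.02, and 0.13. Without the library labelled morphine male 6 they were at -0.77, -0.59, and 0.39, and 0 of 8 passed.

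Sex was the second factor of the design. Male over female, with treatment as a covariate, 0 of 8 genes passed against 3.94% of the 18608 tested. *Cacnb3* was at 0.40 (standard error 0.24) and *Cacnb1* at 0.36 (standard error 0.19), with adjusted *p* = 0.734 for both in edgeR's quasi-likelihood test. *Cacnb1* ran from 22.3 to 29.1 CPM with a median of 26.4 in the 6 females, and from 19.6 to 45.2 CPM with a median of 31.9 in the 6 males. *Cacna2d2* was at 0.19 (standard error 0.11), and the other 5 genes lay between -0.10 and 0.05. Without saline males 1 and 2 the estimates for *Cacnb1* and *Cacnb3* were -0.02 and -0.08, and with the GC and length offsets they were -0.01 and -0.03. Without saline male 3, *Cacnb1* (0.49), *Cacnb3* (0.57), and *Cacna2d2* (0.31) passed, with 20.9% of all genes. Without the library labelled morphine male 6, *Cacnb1* was at 0.34 and *Cacnb3* at 0.37, and 0 of 8 passed.

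Across the 12 libraries, the levels of 5 of the genes correlated with the GC trend. The trend was measured in these same libraries from the genes with the highest and the lowest GC content. Ranked by GC content, *Cacnb3* was at percentile 97.9, *Cacnb1* at 95.5, *Cacna2d2* at 82.7, *Cacna2d1* at 9.09, and *Cacnb4* at 8.47. Correlations of the matching sign are therefore partly built in for these 5 genes, and also for *Cacnb2*, at percentile 4.46. Such correlations were common among all genes. Pearson's r between the log2 level and the GC trend was 0.983 for *Cacnb3* and 0.968 for *Cacnb1* (Spearman's rho 0.930 and 0.979), and 0.852 for *Cacna2d2* (rho 0.867). It was negative for *Cacna2d1* (r = -0.941, rho = -0.881) and *Cacnb4* (r = -0.836, rho = -0.867). Over the 8 genes, the permutation *p* of these 5 values of r, two-sided and adjusted by Benjamini-Hochberg, was between 3e-05 and 0.00115, and that of rho between 8e-05 and 0.0009; 100000 permutations can give no unadjusted *p* below 1e-05. The permutations compare with no relation at all, so these *p* values do not show a relation beyond the built-in part. Without the 2 libraries farthest from the median trend, saline males 2 and 3, r was still 0.977, 0.955, 0.772, -0.869, and -0.688 in that order. *Cacna2d3* had r = -0.681 (adjusted permutation *p* = 0.0191) but rho = -0.476 (0.163), and its r was -0.473 without the 2 libraries. *Cacna2d4* (r = 0.527, rho = 0.322) and *Cacnb2* (r = -0.239, rho = -0.140) had adjusted permutation *p* of 0.0899 and 0.451 for r and 0.355 and 0.665 for rho. Among the 15056 genes with a mean of at least 1 CPM, r was at percentile 98.1 for *Cacnb3*, 94.0 for *Cacnb1*, 77.8 for *Cacna2d2*, 14.2 for *Cacnb4*, and 2.98 for *Cacna2d1*, so values like those of *Cacna2d2* and *Cacnb4* are not particular to them. *Cacnb2*, with the lowest GC content of the 8, thus did not follow the order of GC content.

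**Figure D5:**
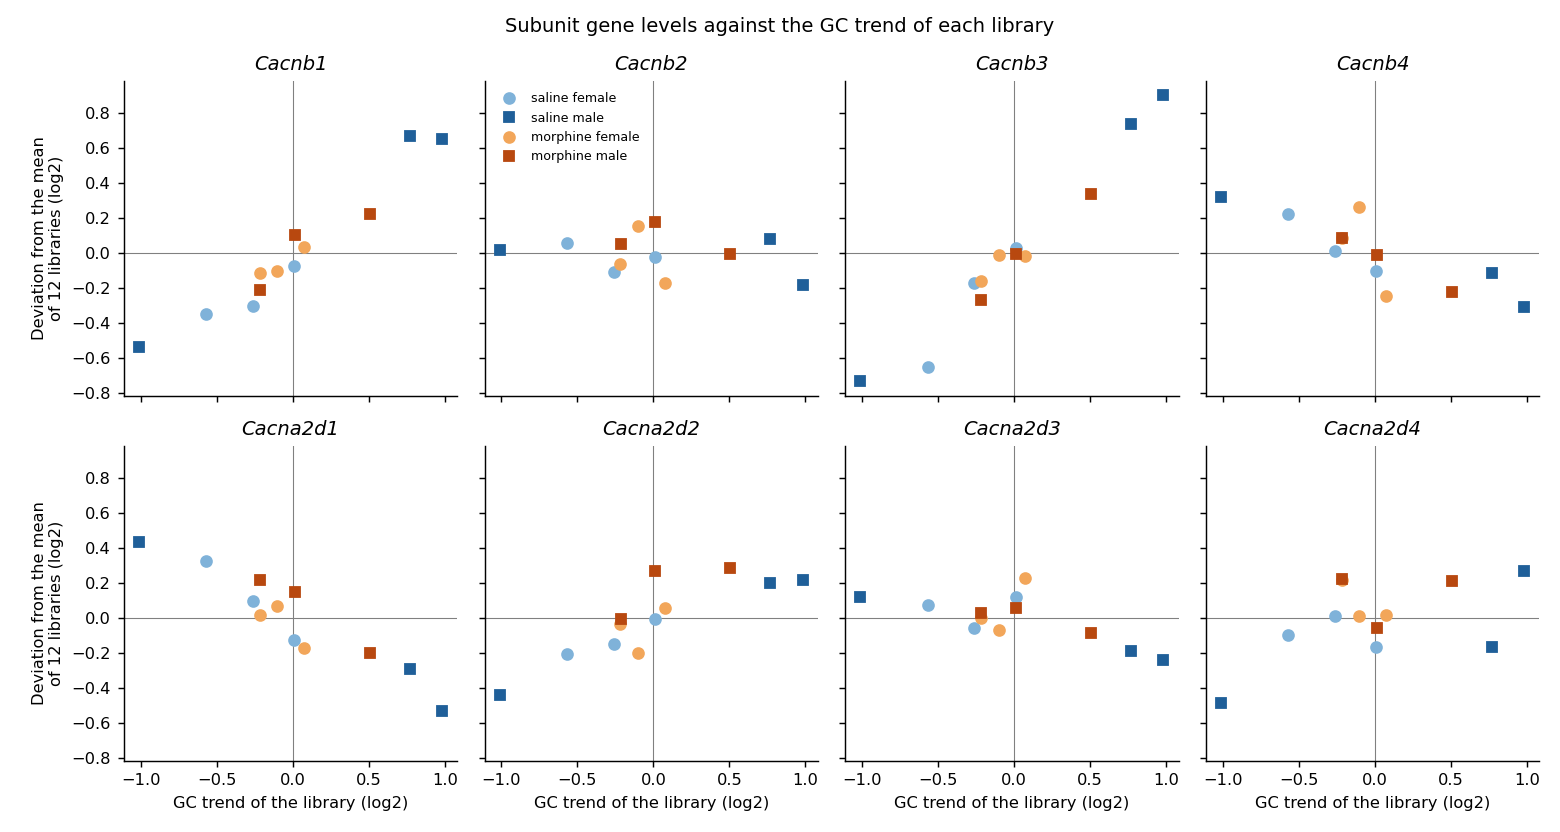
Deviation of each gene's log2 level from its mean over the 12 libraries (vertical axis) against the GC trend of the library (horizontal axis, log2), with a point per library in the colour of its group. *Cacnb3* and *Cacnb1* rise along the trend (r = 0.983 and 0.968), *Cacna2d1* and *Cacnb4* fall (r = -0.941 and -0.836), and *Cacnb2* is flat (r = -0.239).

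The offsets narrowed the spread of most of the 8 genes. The SD of the log2 level within groups went from 0.499 to 0.0819 for *Cacnb3*, from 0.366 to 0.124 for *Cacnb1*, from 0.302 to 0.0895 for *Cacna2d1*, from 0.235 to 0.0837 for *Cacnb4*, and from 0.218 to 0.12 for *Cacna2d2*. The median over the 15056 genes with a mean of at least 1 CPM went from 0.23 to 0.159. *Cacna2d4* went from 0.201 to 0.14 and *Cacna2d3* from 0.138 to 0.146. For *Cacnb2* the SD rose from 0.123 to 0.232, so its level was more even before the offsets than after. Before the offsets *Cacnb3* varied more over the 12 libraries than 91.0% of these genes and *Cacnb2* more than 9.28%. The relation to other properties that moved with the trend, such as ribosomal protein genes at a median deviation of 0.517 in saline male 1 and -0.502 in saline male 3, was not tested.

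The skeletal muscle markers *Acta1*, *Ckm*, *Mylpf*, *Tnnt3*, *Tnni2*, and *Myh8* summed to 32.0 CPM in saline male 2, against 1.29 to 5.85 CPM in the other libraries. Each was highest in saline male 2 except *Myh8*, at 0.469 CPM there and highest in morphine male 5 at 0.855 CPM. *Ckm* was at 0 in 6 libraries. *Cacnb1* was as high in saline male 1 (45.2 CPM), with a muscle sum of 3.70 CPM, as in saline male 2 (44.7 CPM), and the part of muscle RNA in these levels was not tested. The α1 gene of skeletal muscle, *Cacna1s*, had 1 to 16 counts, and the γ subunit gene of muscle, *Cacng1*, 0 to 9, both highest in saline male 2. Markers of other tissue varied as well. Choroid plexus markers summed to 10.4 CPM in saline female 4 and 842 CPM in morphine male 5, the lowest and highest. Cerebellar granule cell markers summed to 51.2 CPM in saline female 5 and 119 CPM in morphine male 5, the lowest and highest. Their part in the levels of the 8 genes was not tested.

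The partners of these subunits were read from lists of the α1 genes (9 of 10 tested), the γ genes (6 of 8), genes whose proteins bind β subunits (8 of 8), and genes whose proteins bind α2δ subunits (8 of 9). In the sex-combined comparison none of the 31 passed in either direction. The median log2 fold change was 0.09 in the α1 genes and 0.06 in the γ genes, beside -0.04 in the β genes, 0.08 in the α2δ genes, and -0.02 over all genes tested. In the males none passed, and in the sex effect none passed. In the females 1 of 6 γ genes passed upward and 1 of 8 α2δ partners downward, 2 of the 31 tested, against 1.81% of all genes. *Cacng8*, which encodes an AMPA receptor auxiliary subunit, was at 2.70, 2.69, and 3.25 CPM in saline females and 4.74, 3.33, and 3.91 CPM in morphine females (log2 fold change 0.46, adjusted *p* = 1.00, edgeR). Its groups did not overlap, as for 5.67% of all genes, but its estimate was 0.18 with the GC and length offsets, and it passed in 2 of the 6 fits that left out 1 mouse. *Thbs2*, a thrombospondin of the family that binds the α2δ protein of *Cacna2d1*, was between 13.8 and 20.2 CPM in saline females and between 9.82 and 14.2 CPM in morphine females (log2 fold change -0.49, adjusted *p* = 1.00, edgeR), and its groups overlapped. It passed with the offsets (-0.45) and in 4 of the 6 fits that left out 1 mouse.

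In the interaction, 2 of 9 α1 genes passed upward and 1 of 8 β partners downward, 3 of the 31 tested, against 2.94% of all genes. *Cacna1e*, the α1 gene of R-type channels, had an estimate of 0.61 (standard error 0.28, adjusted *p* = 0.985, edgeR). It was at 105.1, 91.5, and 139.0 CPM in saline males and 168.2, 172.3, and 122.3 CPM in morphine males, and at 119.6, 139.1, and 165.4 CPM in saline females and 128.1, 150.7, and 104.0 CPM in morphine females. Its lowest level was in saline male 2, followed by morphine female 3 and saline male 1. Saline males 2 and 1 are the libraries with the most positive GC trend. With the GC and length offsets the estimate was 0.42 and passed with 6.04% of all genes, and it passed in 4 of the 12 fits that left out 1 mouse. *Cacna1c*, an L-type α1 gene, had an estimate of 0.41 (standard error 0.19, adjusted *p* = 0.985, edgeR). It was at 46.1, 48.9, and 50.8 CPM in saline males and 69.7, 57.0, and 55.2 CPM in morphine males, with no overlap, as for 8.85% of all genes, and its log2 fold change in the males alone was 0.29 (standard error 0.14). The estimate was 0.26 with the offsets, where it did not pass, and it passed in 5 of the 12 fits that left out 1 mouse. *Rem1*, a small GTPase of the RGK family that binds β subunits, had an estimate of -1.45 (standard error 0.64, adjusted *p* = 0.985, edgeR), but its level was between 0.228 and 1.07 CPM in every library. It did not pass with the offsets (-1.03), and it passed in 5 of the 12 fits that left out 1 mouse. Without the library labelled morphine male 6, *Cacna1e* (0.75), *Cacna1c* (0.47), and *Rem1* (-1.62) passed, with 3.39% of all genes (adjusted *p* = 0.887 each, edgeR).

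The patterns over the 12 libraries paired the genes within the set. *Cacnb1* and *Cacnb3* were each other's most alike member (r = 0.967), as were *Cacnb4* and *Cacna2d1* (r = 0.880), and *Cacnb3* and *Cacna2d1* were the least alike (r = -0.939). *Cacna2d2* was most like *Cacnb1* (r = 0.824). Among the 15056 genes compared, *Cacnb3* was most like *Ranbp3* and *Sema4f* (r = 0.994 each), *Cacnb1* like *Mknk2* (r = 0.993) and *B4galnt1* (r = 0.990), *Cacna2d1* like *Frrs1l* (r = 0.984) and *Strbp* (r = 0.981), *Cacnb4* like *Fam199x* (r = 0.983) and *Zfp229* (r = 0.979), and *Cacna2d2* like *Mtor* (r = 0.979) and *Sarm1* (r = 0.977). The nearest genes were less alike for *Cacna2d3* (*Polr2b*, r = 0.949, and *Prmt8*, r = 0.929), *Cacnb2* (*Camk4*, r = 0.931, and *Trpc5*, r = 0.915), and *Cacna2d4* (*Gm15612*, r = 0.907, and *P2ry2*, r = 0.896). These values are descriptions: they share the libraries and their GC trend, and the genes were the highest of all compared.

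A transcript on the opposite strand, A430018G15Rik, overlaps 15.99% of the exon bases of *Cacnb4*. Neither the strand setting of the counting nor its handling of reads over more than 1 gene is given. Reads over the shared bases could thus have been added to *Cacnb4* or left out of it. That transcript had 0 to 14 counts per library, against 4501 to 8051 for *Cacnb4*. Those counts may also leave out the shared bases, so they do not bound the effect. For the other genes the overlap with opposite-strand exons was at most 4.67% of their exon bases from any 1 gene.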

How the data were processed

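RNA-seq of 12 brainstem libraries (3 mice per treatment and sex) was analysed from the deposited values, which are counts per gene as the authors obtained them: reads were trimmed with Trimmomatic, aligned to mm10 with STAR, and counted over exons with featureCounts. They are whole numbers with different totals (27850565 to 48097947), so they were treated as raw; the strand setting is not given in the sources used here. Dam, a covariate named in the series' design text, is in no label. The tests were quasi-likelihood F tests in edgeR 4.0.16 (R 4.3.3, TMM, filterByExpr), with sex as a covariate over both sexes, in each sex alone, and with an interaction term. Calls needed a p under 0.05 before adjustment and a log2 fold change beyond 0.26 in either direction. P-values were adjusted (Benjamini-Hochberg) over all genes tested. Levels are CPM, and RPKM use the union of exons of GENCODE M21. GC and length offsets were loess curves (span 0.5) per library. The genes and lists were chosen with earlier results of these data known. All 8 genes are named throughout; of the partner lists, those called in a comparison are named, and for likeness the 2 most correlated genes with a mean of at least 1 CPM. Alternatives were DESeq2 1.42.0, exactTest, other scalings and filters, the offsets, the replicate number as a block, and leaving out each mouse. The main fit of each comparison was first run on simulated counts, drawn gene by gene without a GC trend. The offsets were run on simulated counts with a known GC trend. The other alternatives were not checked in this way, and the simulations do not cover the GC trend's effect on the calls. With 3 mice against 3, an exact permutation test cannot go below 0.1, so none was used for single genes.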

Additional observations from a re-analysis of the deposited data

Results flagged for a closer look

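None of the levels or shares of the 8 genes held an outlying library by Dixon's criterion, which was applied to the 6 saline and the 6 morphine mice of each gene (32 groups of values). That criterion looks for a single value apart. It can miss libraries that lie together, such as saline males 1 and 2 for *Cacnb3* (45.5 and 50.9 CPM). Of the 31 partner genes tested, 3 passed the thresholds in the interaction of treatment and sex by edgeR, against 2.94% of all genes: *Cacna1e* at 0.61 (standard error 0.28), *Rem1* at -1.45 (standard error 0.64), and *Cacna1c* at 0.41 (standard error 0.19), the males' change minus the females' on the log2 scale. Their adjusted *p* was 0.985 each, so a difference between the sexes is not established for them.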

How the results depend on the processing

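No member passed in the females under any of the alternatives run. Over both sexes the number of members called was 0 to 1 when 1 mouse was left out (*Cacna2d4*, without saline male 2) and 3 without both saline males 1 and 2, where *Cacnb1* (0.31) and *Cacnb3* (0.37) changed sign. In the males and in the interaction it was 0 to 3 when 1 mouse was left out (3 without saline male 3), and 1 (*Cacna2d2*) with GC and length offsets and without saline male 3. For the sex effect it was 2 without a filter on low counts (*Cacnb1* and *Cacnb3*), and 0 to 3 when 1 mouse was left out (3 without saline male 3, 1 without morphine male 5). The settings that leave out 2 libraries, or join the offsets with 1 left out, and those for partner genes, were chosen after the data were seen. Of 768 log2 fold changes of single members under alternatives, 718 moved by less than the standard error without crossing a threshold, 18 crossed one, and 87 changed sign. The count of all genes called over both sexes moved from 221 to 754 without a filter, and in the males from 543 to 1239 with the offsets and to 5341 without saline male 3; in the interaction these were 559, 1150, and 4695, and in the sex effect 733, 513, and 3947. Scaling by total counts moved the share of higher calls from 64.3% to 91.3% in the males and from 51.1% to 72.7% over both sexes. The replicate numbers showed no sign of pairing the mice (correlations from -0.356 to 0.18, and 1 of 12 libraries was most correlated with its own number). This check does not exclude littermates under the same number. With the replicate block, 0 members were called over both sexes and 0 for the sex effect, and the genes called went from 221 to 182 and from 733 to 445. The causes of these shifts were not tested. Depth does not limit 7 of the genes, which had at least 535 counts per library; *Cacna2d4* had 147 to 357.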
